A study of Arabidopsis thaliana with 24 samples.

Results

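The genes described here are 189 of the 22746 probe sets of an Affymetrix array on which RNA from Arabidopsis thaliana roots was measured after phosphate (Pi) was withdrawn. They were higher without Pi 1 h after the transfer and were no longer higher by 0.4 or more on average at 24 h, with no limit set on how far they could lie below the supplied roots then. They were chosen by the Pi effect at 1 h and 24 h, which is the log2 value of a minus Pi array less that of the plus Pi array of the same time and experiment. A member had a mean Pi effect at 1 h of at least 0.8, a Pi effect above 0.3 at 1 h in each of the 3 experiments, and a mean Pi effect at 24 h under 0.4. Of the 189 members, 136 named 1 gene, 7 named several similar genes and 46 were unnamed here and are given by their probe set identifier. Over all 22746 probe sets, 4971 were unnamed. A gene of a list is called measured below only where a probe set named that gene alone. Listed genes that were not measured could thus lie among the unnamed members. No filter on low values was applied, so all 189 entered every test.

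The plants grew in aerated nutrient solution for 30 days, were rinsed for a short time in 0.1 mM EDTA, and were moved 1 h into the light period into solution with no Pi (minus Pi roots) or with 1.5 mM Pi (plus Pi roots). Roots were taken at 0, 1, 6 and 24 h, about 20 plants for each time, which gave 8 groups of 3 arrays, 1 from each of 3 runs of the experiment. The plus Pi plants went through the same rinse and transfer, and no mutant, transgene or ecotype is named in the labels. In whole roots, fewer cells of a type and less RNA per cell cannot be told apart. Of the root markers, 6 of 9 were measured, with mean levels of 6.68 to 12.07 on the log2 scale, and PYK10, a beta-glucosidase gene of root endoplasmic reticulum bodies, was the highest. Of the shoot photosynthesis markers, 4 of 8 were measured, with mean levels of 5.28 to 5.68, and 0 of them passed the test for a Pi effect at 6 h. The array medians lay between 6.345 and 6.454. With 3 arrays per group, their number sets the precision.

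Plant cells answer touch, wounding, a change of solution and many other disturbances within minutes with a shared set of transcripts. Calcium enters the cytosol and is read by calmodulin-like proteins and calcium-dependent kinases, MAP kinase cascades are switched on, and transcription factors of the WRKY, ERF and CBF families are made in a short burst. Xyloglucan endotransglucosylase/hydrolases (XTH), which cut and rejoin the xyloglucan that ties cellulose fibrils together, and expansin-like proteins are among the fast targets at the cell wall. The response to lasting Pi shortage is a different programme, run by the factor PHR1 and held back by SPX proteins when Pi is plentiful. Its marker SPX1 had a mean Pi effect of 0.22 at 1 h, 1.63 at 6 h and 3.17 at 24 h, and 0 of the 7 measured genes of the phosphate starvation list were members. The rule in part fixed that count, because SPX1, OCT1, SQD1 and SQD2 lay above its 24 h limit.

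At 1 h the median Pi effect over the members was 1.14, set by the rule. The mean Pi effect reached 1 or more, a fold of at least 2, in 123 members and a fold of at least 4 in 16. The median over the members was 0.24 at 0 h, 1.14 at 1 h, 0.52 at 6 h and 0.07 at 24 h. Over all 22746 probe sets the medians at these times lay between -0.02 and 0.00. By experiment, the members' median at 1 h was 1.25, 1.21 and 1.09 in experiments 1, 2 and 3. At 6 h it was 0.69, 0.58 and 0.20, lowest in experiment 3. At 0 h it was 0.29, -0.08 and 0.44, so that experiment 2 alone lay below 0 there. At 24 h it was 0.08, 0.11 and -0.09, and 79 members lay below 0. The rule in part set these 24 h values too, since it kept only means under 0.4.

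Tests at 6 h and 0 h, which the rule did not use, were made with limma at an adjusted p under 0.05, and also with the experiment as a fixed block. Their spread was estimated from all 24 arrays, among them the 1 h and 24 h arrays that the rule used. At 6 h 39 members were higher in minus Pi roots, where 3.97% of all probe sets were, and 7 were lower, where 5.69% were. Of these 46 members, 4 passed without experiment 2, 3 passed in each of the 9 fits that left out an array or an experiment, and 19 did not pass with the 0 h and 6 h arrays alone. Members that passed in under 5 of the 9 fits numbered 20, and their number of fits is given for those named.

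**Figure D1:**
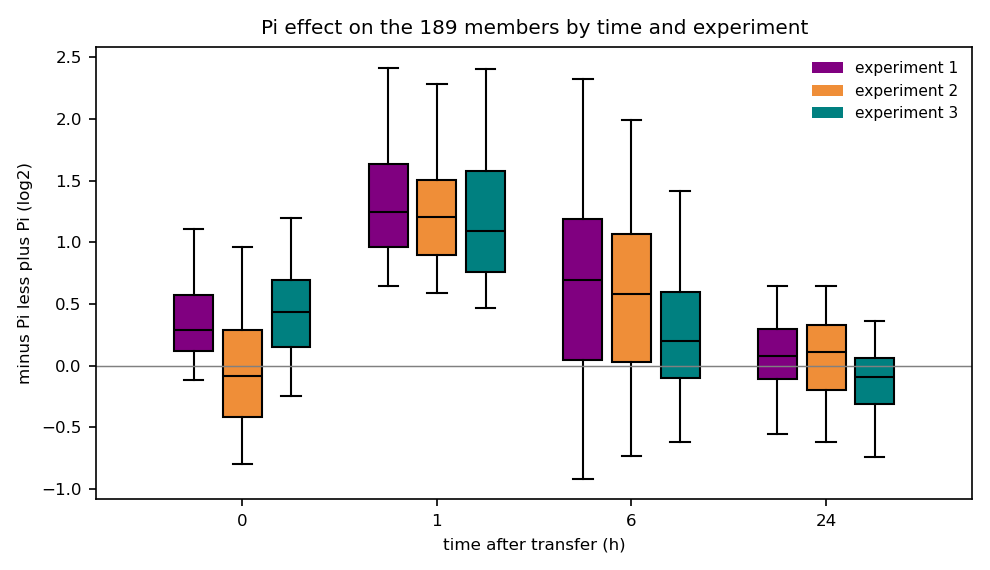
Minus Pi less plus Pi values (log2) of the 189 members at 0, 1, 6 and 24 h in experiments 1, 2 and 3. Boxes span the quartiles with the median as a line and whiskers reach the 5th and 95th percentiles over members. The medians at 1 h (1.25, 1.21 and 1.09) follow from the rule, which also kept the means at 24 h under 0.4. The medians at 6 h are 0.69, 0.58 and 0.20.

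Of the early wall list 15 of 15 genes were measured and 7 were members, EXLA2, XTR6, XTH18, XTH19, EXL2, EXLA1 and EXLA3. By role 13 members act at the wall, and they held the largest 2 mean Pi effects at 1 h. EXLA2, an expansin-like gene, had values of 9.32, 8.38 and 8.77 in the 3 minus Pi arrays at 1 h, against 5.74, 5.79 and 5.30 in the plus Pi arrays, a mean Pi effect of 3.21 ± 0.55 (SD, n = 3). At 6 h it had 6.28, 5.34 and 5.21 in minus Pi roots, against 5.36, 4.79 and 4.74 in plus Pi roots. The arms lay far apart at 1 h, where the rule favoured that order. They overlapped at 6 h, where the Pi effect of 0.64 ± 0.35 (SE) did not pass the test (adjusted p = 0.307, limma). XTR6, also named XTH23 and coding for an XTH enzyme, had 10.10, 8.26 and 8.42 in minus Pi roots at 1 h, against 6.48, 5.59 and 6.16 in plus Pi roots. At 6 h it still had 9.05, 7.43 and 7.05, against 6.76, 5.01 and 5.65. Experiment 1 was highest in both arms, and the Pi effect at 6 h of 2.04 had an adjusted p of 0.102 by limma and of 0.000101 with the experiment as a block.

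XTH18 and XTH19 are neighbours on the chromosome and code for similar XTH enzymes, so their probe sets may share transcripts. XTH18 had 10.66, 10.18 and 10.42 in minus Pi roots at 1 h, against 9.15, 8.97 and 8.07 in plus Pi roots. XTH19 had 11.22, 11.27 and 11.10, against 9.68, 10.01 and 8.61. Neither gene's arms overlapped at 1 h, where the rule favoured that order and 167 of the members had no overlap. At 6 h XTH18 had 9.00, 9.06 and 9.21 in minus Pi roots, against 7.43, 7.35 and 7.33 in plus Pi roots, a Pi effect of 1.72 ± 0.26 (SE; adjusted p = 0.000455, limma). XTH19 had 6.20, 7.41 and 7.92 in minus Pi roots at 6 h, against 7.46, 8.20 and 7.61 in plus Pi roots, a Pi effect of -0.58 (adjusted p = 0.463, limma). XTH18 was thus still separate at 6 h while the arms of XTH19 overlapped. The difference between these genes was not tested.

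Among the other wall members, EXL2, of the EXORDIUM-like growth genes, was higher in minus Pi roots at 6 h by 1.59 ± 0.28 (SE; adjusted p = 0.00161, limma), more than its mean Pi effect of 1.17 at 1 h. XT1, a xyloglucan xylosyltransferase, was higher at 6 h by 0.67 (adjusted p = 0.0141, limma). The expansin-like genes EXLA1 and EXLA3, neighbours on the chromosome, had mean Pi effects of 1.91 and 1.63 at 1 h, and of 0.70 and -0.02 at 6 h, neither past the threshold. AGP1, an arabinogalactan protein gene, had 11.24, 11.51 and 11.39 in minus Pi roots at 1 h, against 9.93, 10.15 and 10.15 in plus Pi roots, and its Pi effect at 6 h was 0.01.

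A pair of wall members lay on opposite sides at 1 h and 6 h. AGP18, an arabinogalactan protein gene, had 8.98, 9.32 and 8.94 in minus Pi roots at 1 h, against 8.19, 8.41 and 8.10 in plus Pi roots. At 6 h it had 7.35, 7.67 and 7.17, against 8.49, 8.33 and 8.25, and was lower in minus Pi roots by a Pi effect of -0.96 ± 0.20 (SE; adjusted p = 0.00623, limma). THE1, a receptor kinase that senses the state of the cell wall, had 6.72, 6.75 and 6.69 in minus Pi roots at 6 h, against 7.76, 7.58 and 7.47 in plus Pi roots, a Pi effect of -0.89 (adjusted p = 0.0373, limma). THE1 passed in 1 of the 9 fits and not with the 0 h and 6 h arrays alone (adjusted p = 0.0648, limma). For both genes every minus Pi array lay below every plus Pi array at 6 h. At 1 h the mean Pi effect of THE1 was 1.03.

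**Figure D2:**
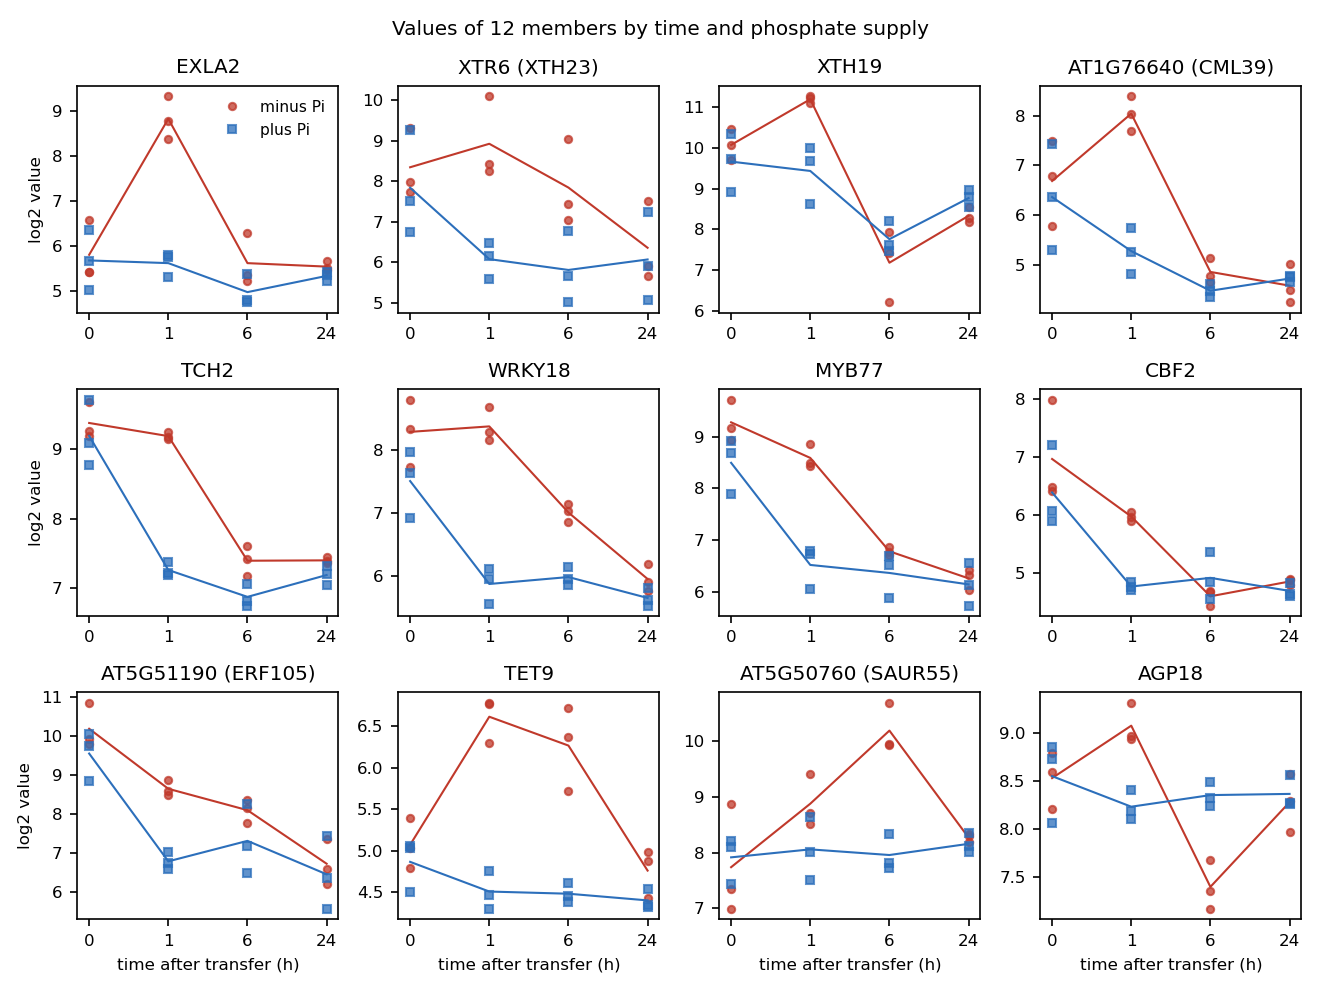
Log2 values of 12 members in minus Pi roots (red circles) and plus Pi roots (blue squares) at 0, 1, 6 and 24 h, drawn at even spacing; each point is 1 array and lines join the means of 3 arrays. EXLA2 and AT1G76640 (CML39) peak at 1 h in minus Pi roots, TCH2, WRKY18, MYB77 and CBF2 start high in both arms and are lower sooner in plus Pi roots, and AGP18 is lower in minus Pi roots at 6 h.

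Of the touch and calmodulin-like list, 12 of 14 genes were measured and 4 were members. AT1G76640, listed as CML39, had 8.04, 8.39 and 7.69 in minus Pi roots at 1 h, against 5.26, 5.74 and 4.82 in plus Pi roots, a mean Pi effect of 2.77 ± 0.11 (SD, n = 3). By 6 h the values were 4.77, 5.14 and 4.65, against 4.34, 4.62 and 4.47, and the Pi effect of 0.38 did not pass the test (adjusted p = 0.711, limma). TCH2, a touch-induced calmodulin-like gene, had 9.24, 9.14 and 9.17 in minus Pi roots at 1 h, against 7.22, 7.20 and 7.37 in plus Pi roots. Its 0 h values were 9.68, 9.25 and 9.19 in minus Pi roots, against 9.71, 9.08 and 8.77 in plus Pi roots. TCH2 in minus Pi roots was thus near its starting level at 1 h, and the plus Pi arrays lay below it. CML37, another calmodulin-like gene, was likewise flat in minus Pi roots and lower at 1 h in plus Pi roots, with a mean Pi effect of 2.42 at 1 h and 1.80 at 6 h (adjusted p = 0.0601, limma; 0.0146 with the block).

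Outside that list, AT4G27280 had a mean Pi effect of 2.41 at 1 h and was higher in minus Pi roots at 6 h by 1.32 (adjusted p = 0.0246, limma). It passed in 2 of the 9 fits and not with the 0 h and 6 h arrays alone (adjusted p = 0.0573, limma). PBP1, a calcium-binding partner of the auxin transport kinase PINOID, had 2.25 ± 0.18 at 1 h and 1.93 ± 1.64 at 6 h (both SD, n = 3). By limma the Pi effect at 6 h had an SE of 0.71 (adjusted p = 0.0996, and 0.0162 with the block). CPK28, a calcium-dependent kinase that limits immune signalling, was higher at 6 h by 0.66 (adjusted p = 0.0492, limma), and BON1, a calcium-dependent membrane-binding copine, by 0.83 (adjusted p = 0.0128, limma). CPK28 passed in 2 of the 9 fits and BON1 in 5. With the 0 h and 6 h arrays alone neither gene passed (adjusted p = 0.0974 and 0.0521, limma). In the touch and calmodulin-like list as a whole, 3 of 12 measured genes were higher at 6 h and 0 lower, and none of these 3 was a member (3.97% of all probe sets were higher and 5.69% lower). With the block 5 of 12 were higher, and the 2 added genes, TCH2 (adjusted p = 0.0231, limma) and CML37, were members. Counting members and other measured genes together, 4 of 15 early wall genes, 5 of 15 WRKY genes, 2 of 12 ERF and DREB genes and 1 of 8 immune signalling genes were higher at 6 h, and 1 WRKY gene was lower. With the block these counts were 7, 8, 4 and 5 higher, again with 1 WRKY gene lower, where 9.34% of all probe sets were higher and 13.2% lower. The median Pi effect at 6 h was 0.78, 0.72, 0.85 and 0.89 over these 4 lists, where all probe sets had -0.02. Of the lists without members, 2 of 6 zinc finger, 2 of 3 NAC, 1 of 3 jasmonate, 3 of 5 mitochondrial stress and 2 of 7 phosphate starvation genes were higher at 6 h and 0 lower. With the block 2, 3, 2, 4 and 2 of them were higher, and 1 zinc finger gene, AZF1, was lower.

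MPK3, a MAP kinase activated by stress and immune signals, had 11.29, 11.09 and 11.16 in minus Pi roots at 1 h, against 10.26, 9.91 and 10.41 in plus Pi roots. At 6 h it had 11.26, 11.06 and 10.92, against 9.89, 10.05 and 10.56, and was higher in minus Pi roots by 0.91 ± 0.21 (SE; adjusted p = 0.00994, limma). It passed in 4 of the 9 fits. Every minus Pi array lay above every plus Pi array at 6 h, and at 1 h too, where the rule favoured that order. It was the 1 member among the 8 measured genes of the immune signalling list. MAPKKK19 had a Pi effect of 1.58 at 6 h (adjusted p = 0.0903, limma; 0.00329 with the block). MKK6, a MAP kinase kinase of cell division, had 0.80 at 1 h and -0.02 at 6 h.

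The largest group by role was that of transcription factors, with 18 members (roles were assigned after values were seen). The share of transcription factors over all probe sets was not counted, so the size of this group has no background beside it. Roles went by gene, so the 46 unnamed members were given none and could include further factors. WRKY18, a modulator of defence genes, had 8.17, 8.68 and 8.29 in minus Pi roots at 1 h, against 5.95, 6.10 and 5.56 in plus Pi roots, a mean Pi effect of 2.51 ± 0.27 (SD, n = 3). At 6 h it had 7.14, 7.03 and 6.85, against 6.14, 5.85 and 5.94, and was higher by 1.03 ± 0.25 (SE; adjusted p = 0.0144, limma). It passed in 4 of the 9 fits and not with the 0 h and 6 h arrays alone (adjusted p = 0.0686, limma). Among the 18 factors with a role it was the only one past the threshold at 6 h without the block. With the block HSFB2A, a heat shock factor gene, was also higher (0.69; adjusted p = 0.0208, limma), and BME3, a GATA factor gene, was lower (-0.51; adjusted p = 0.00777, limma). MYB77, an auxin-responsive regulator of lateral roots, had 8.48, 8.86 and 8.43 in minus Pi roots at 1 h, against 6.06, 6.79 and 6.73 in plus Pi roots. By 6 h it had 6.71, 6.78 and 6.87 against 5.89, 6.53 and 6.70, so that the lowest minus Pi array lay just above the highest plus Pi array, and the Pi effect of 0.42 did not pass the test (adjusted p = 0.443, limma).

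Factors of the ERF and DREB list gave 4 members of 12 measured genes. These were ERF6, CBF2, which raises cold tolerance, RRTF1, a redox-responsive factor, and AT5G51190, listed as ERF105. CBF2 had 5.90, 6.05 and 5.98 in minus Pi roots at 1 h, against 4.71, 4.84 and 4.76 in plus Pi roots. At 0 h it had 7.99, 6.42 and 6.49, against 7.21, 6.07 and 5.89, so both arms were lower at 1 h than at 0 h and the plus Pi arm was lower by more. AT5G51190 had the same order, with a mean Pi effect of 1.86 at 1 h, and ERF6 had 1.57. RRTF1 was the 1 member whose mean Pi effect was smaller at 1 h (0.82) than at 0 h (1.01). At 6 h the Pi effects of these 4 genes were between -0.32 and 1.20, and none passed the test. WRKY18 and WRKY38 were the members among the 15 measured WRKY genes, of 26 listed. WRKY70 missed by the limit for each experiment, with a lowest value of 0.28, and its mean Pi effect at 1 h was 1.02. The zinc finger, NAC, jasmonate and mitochondrial stress lists held 0 members among 6, 3, 3 and 5 measured genes, of 9, 10, 16 and 8 listed. The rule in part fixed these counts, because ZAT10, ZAT12, NAC062, NAC102, DIC2 and OM66 lay above its 24 h limit. All of these also lay above the limit on the mean at 1 h. ZAT10, NAC102, DIC2 and OM66 had mean Pi effects of 1.75, 1.81, 2.58 and 1.88 at 1 h. The other measured genes of these lists lay under the limit on the mean at 1 h. Unnamed members could belong to these lists. TCH4 (XTH22), the touch-induced XTH gene, met the limits at 1 h with a mean Pi effect of 5.16 and was not a member because it still had 0.91 at 24 h.

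AT1G22810 differed in course from the other factors. It had 4.73, 6.25 and 5.66 in minus Pi roots at 1 h, against 3.88, 4.26 and 4.20 in plus Pi roots. In the other 6 groups its values lay between 3.70 and 4.19. The 3 minus Pi arrays at 1 h were thus above each of the other 21 arrays. Among the 1 h arrays the rule favoured that order. AT1G59660 had a like shape, with 9.11, 8.23 and 8.37 in minus Pi roots at 1 h, against 6.39, 6.20 and 6.21 in plus Pi roots, and a Pi effect of -0.16 at 6 h.

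Members that act elsewhere covered defence, RNA turnover, ubiquitin transfer and hormones. Of 5 defence members, a role assigned after values were seen, 3 were higher at 6 h, where 3.97% of all probe sets were. They were GILP, a partner of the cell death regulator LSD1 (1.24; adjusted p = 0.00737), NUDT7, a Nudix hydrolase that restrains defence (1.23; adjusted p = 0.0181), and PAD4, a lipase-like defence regulator (1.09; adjusted p = 0.0449, all by limma). NUDT7 and PAD4 each passed in 4 of the 9 fits, and neither passed with the 0 h and 6 h arrays alone (adjusted p = 0.0564 and 0.111, limma). PROPEP4, the precursor of a danger peptide, and CYP81F3, a cytochrome P450 of the indole glucosinolate pathway, had 0.40 and -0.12. CAF1a and CAF1b, which shorten the poly(A) tails of messenger RNA, had Pi effects of 0.71 and 0.97 at 6 h, neither past the threshold, though CAF1b passed with the block (adjusted p = 0.0373, limma). CAF1a had 7.64, 7.72 and 6.86 in minus Pi roots at 1 h, against 6.28, 6.01 and 6.02 in plus Pi roots. RDUF1, a RING-type ubiquitin ligase, was higher at 6 h by 0.67 (adjusted p = 0.00993, limma), and RING1, PUB25 and PUB26 did not pass.

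The 4 members with hormone roles were GH3.1, of the auxin-responsive GH3 family, IAGLU, which joins auxin to glucose, BEN1, which acts in brassinosteroid breakdown, and AT5G50760 (SAUR55), of the small auxin-up RNA family. AT5G50760 had 9.95, 9.92 and 10.68 in minus Pi roots at 6 h, against 7.81, 7.71 and 8.34 in plus Pi roots. It had 8.51, 8.71 and 9.40 at 1 h, against 8.01, 7.51 and 8.65. The Pi effect was larger at 6 h, at 2.23 ± 0.39 (SE; adjusted p = 0.00153, limma), than its mean of 0.82 at 1 h. GH3.1, IAGLU and BEN1 had 0.34, 0.72 and -0.12 at 6 h, and none passed the test, though IAGLU passed with the block (adjusted p = 0.00269, limma).

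The Pi effect at 1 h came about in different ways in the arms. Counting a mean change from 0 h to 1 h of over 0.5 log2 in either direction as a move, 93 members were up, 69 were flat and 27 were down in minus Pi roots. In plus Pi roots 3 were up, 92 were flat and 94 were down. These changes share the 1 h arrays with the rule, so they carry no test. In 75 members the minus Pi arm was up and the plus Pi arm flat, as in EXLA2, XTH18 and AT1G59660. In 52 the minus Pi arm was flat and the plus Pi arm down, as in TCH2, WRKY18 and MPK3.

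A further 27 members were down in both arms, among them MYB77, CBF2, RRTF1, CAF1a and the neighbouring genes AT4G27652 and AT4G27654. In 15 the minus Pi arm was up and the plus Pi arm down, in 17 both were flat and in 3 both were up. Over the 4 times, the mean in minus Pi roots was highest at 1 h in 123 members and at 0 h in 53. The mean in plus Pi roots was highest at 0 h in 138 of 189. The median level over the members was 7.94 at 0 h, 8.20 at 1 h, 7.19 at 6 h and 6.64 at 24 h in minus Pi roots, and 7.69, 6.77, 6.65 and 6.53 in plus Pi roots. 

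**Figure D3:**
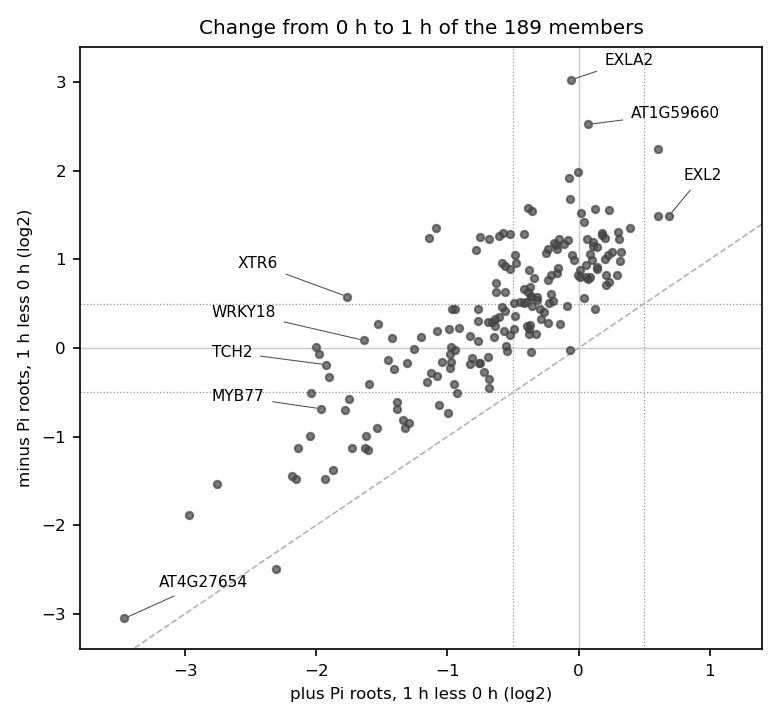
Mean change from 0 h to 1 h (log2) of each of the 189 members in minus Pi roots (y axis) and plus Pi roots (x axis); dotted lines mark changes of 0.5 in each direction and the dashed line marks equal change. EXLA2 and AT1G59660 are up in minus Pi roots with plus Pi roots near 0, TCH2 and WRKY18 are near 0 in minus Pi roots and down in plus Pi roots, and AT4G27654 is down in both.

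At 0 h, 155 of 189 members had a mean Pi effect above 0, but 66 were above 0 in each of the 3 experiments. By limma 0 members passed the test at 0 h, where percent called over all probe sets was 0. At an unadjusted p under 0.05 there were 18 members, and 301 of all 22746 probe sets. The smallest p-values among members with 1 gene belonged to RRTF1, AT2G32030 and WRKY18. RRTF1 had 8.02, 7.55 and 7.42 in minus Pi roots at 0 h, against 7.43, 6.11 and 6.44 in plus Pi roots, a difference of 1.01 ± 0.26 (SE; adjusted p = 1.00, limma). AT2G32030 and WRKY18 had 0.65 and 0.78, with the same adjusted p. The 0 h arrays thus held a shift of the members' median toward minus Pi roots in experiments 1 and 3, and its part in the Pi effects at 1 h was not tested.

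At 6 h, which the rule did not use, 39 of 189 members were higher in minus Pi roots (20.6%), where 3.97% of all probe sets were higher. Lower in minus Pi roots were 7 members (3.70%), against 5.69% of all probe sets. With the experiment as a block, 78 members were higher and 11 lower, where 9.34% and 13.2% of all probe sets were called. The Pi effect at 6 h was above 0 in 143 members, and it ranged from -1.16 to 3.29. It exceeded the mean at 1 h in 22 members. Without experiment 2, 4 members were higher and 0 lower. Without experiment 1 the count was 26. Leaving out a 6 h array of experiment 1 or 2 in either arm left 24 to 30 calls. For 5 arrays the file number lay outside their experiment's run or the file name carried an extra mark. What this means is not stated. They include 2 of the 3 minus Pi arrays at 6 h, so a fit without the 5 arrays left 1 array in that group.

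The largest Pi effect at 6 h was that of the unnamed probe set 256833_at. It had 9.32, 7.70 and 7.69 in minus Pi roots at 6 h, against 4.79, 4.98 and 5.07 in plus Pi roots, a Pi effect of 3.29 ± 0.31 (SE; adjusted p = 5.57e-06, limma). TET9, a tetraspanin of cell membranes, had 6.72, 6.37 and 5.72, against 4.45, 4.37 and 4.61 (1.79 ± 0.23; adjusted p = 0.000128). AT1G27200 had 7.06, 6.98 and 7.26, against 6.21, 6.28 and 6.08 (0.91 ± 0.11; adjusted p = 5.15e-05). In each of these, every minus Pi array lay above every plus Pi array. AT2G16900 had 8.33, 8.57 and 8.35, against 7.14, 7.08 and 7.48, and passed with a Pi effect of 1.18 (adjusted p = 0.000573, limma). Together with AT1G27200 and 256833_at it passed in each of the 9 fits that left out an array or an experiment of this comparison.

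AT1G72900, ASPGB1, an asparaginase, and AT4G28085 were also higher at 6 h, by 1.91, 1.84 and 1.68 (adjusted p = 0.0434, 0.0386 and 0.0254, limma). They passed in 2, 2 and 3 of the 9 fits. AT1G72900 and AT4G28085 did not pass with the 0 h and 6 h arrays alone (adjusted p = 0.107 and 0.100, limma). In AT1G72900 the plus Pi values were 5.18, 6.06 and 8.01, and the last lay within the minus Pi range of 7.88 to 8.93. Lower in minus Pi roots, besides AGP18 and THE1, were AT4G35320 (-1.16), CDI (-0.60) and AT3G19680 (-0.54), and the unnamed probe sets 263421_at (-0.81) and 257714_at (-0.82). Of these, AT3G19680 passed in 1 of the 9 fits. With the 0 h and 6 h arrays alone AT4G35320 and AT3G19680 did not pass (adjusted p = 0.0578 and 0.0945, limma). The probe set 263421_at had 6.53, 6.71 and 6.66 at 6 h in minus Pi roots, against 7.57, 7.51 and 7.25 in plus Pi roots, after 8.57, 8.58 and 8.37 against 7.00, 7.30 and 6.95 at 1 h. Its arms thus changed order between 1 h and 6 h with no overlap at either time, and the order at 1 h was set by the rule.

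**Figure D4:**
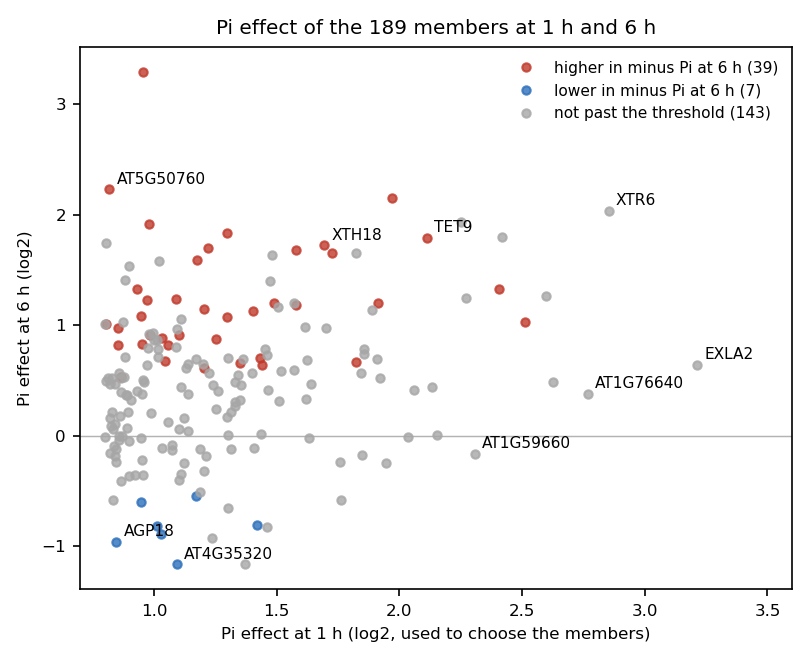
Pi effect at 6 h (y axis, log2) against the mean Pi effect at 1 h (x axis, log2) of the 189 members. Red points are the 39 members higher in minus Pi roots at 6 h and blue points the 7 lower ones, by limma at an adjusted p under 0.05; grey points are the 143 others, among them EXLA2 and AT1G76640 (CML39).

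Probe sets that met the limits at 1 h but had a Pi effect of 0.4 or more at 24 h numbered 113. At 6 h, 51 of these 113 were higher and 0 lower, with a median Pi effect of 1.39, where the members had 39 and 7 of 189 and a median of 0.52. With the block 85 of the 113 were higher and 0 lower. The 24 h value was used to divide these sets, and the difference between them was not tested. The opposite image, lower at 1 h by the same limits, held 25 probe sets against the 189 members. At 24 h these were no longer lower by 0.4 or more on average, with no limit set above. Their mean Pi effects at 24 h ranged from -0.38 to 2.81. At 6 h 1 of the 25 was higher and 6 were lower, where 3.97% and 5.69% of all probe sets were, and with the block 3 were higher and 10 lower.

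Between 0 h and 6 h the members that passed the test mostly fell. In minus Pi roots 71 of 189 members fell (37.6%) and 11 rose, where 9.85% and 8.51% of all probe sets did so by limma. In plus Pi roots 55 members fell (29.1%) and 0 rose, where 1.46% and 0.879% of all probe sets did so, and 45 members fell in both arms. With the experiment as a block, 88 members fell and 18 rose in minus Pi roots, where 16.9% and 15.3% of all probe sets did so. In plus Pi roots 89 fell and 0 rose with the block, where 3.38% and 2.93% of all probe sets did so. At an unadjusted p under 0.05, 106 members had a change in plus Pi roots in either direction, and 2548 of all 22746 probe sets did. Without experiment 2 the counts were 49 in minus Pi and 11 in plus Pi roots, and without experiment 1 the plus Pi count was 36. Without the 5 arrays named above the minus Pi count was 46.

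AT4G27654 had the largest fall in either arm. It had 4.09, 4.92 and 4.86 in minus Pi roots at 6 h, against 8.89, 9.40 and 8.76 at 0 h (-4.39; adjusted p = 9.88e-08, limma). In plus Pi roots it had 5.64, 4.66 and 4.12, against 8.51, 7.97 and 8.17 (-3.41; adjusted p = 4.56e-06). Its neighbour AT4G27652 fell too, with log2 changes of -3.02 in minus Pi roots and -3.13 in plus Pi roots. Of the 18 transcription factors, 12 fell in minus Pi roots and 9 in plus Pi roots, where 9.85% and 1.46% of all probe sets fell, and with the block 13 fell in each arm. In minus Pi and plus Pi roots the changes were -2.93 and -2.09 for RRTF1, -3.12 and -2.63 for AT1G44830, of the ERF family, and -2.48 and -2.12 for MYB77. TCH2 had -1.98 and -2.31 (adjusted p = 1.23e-06 and 4.69e-07, limma). Of the wall genes, 7 of 13 fell in minus Pi roots and 3 in plus Pi roots, and with the block 8 and 9 fell, where 16.9% and 3.38% of all probe sets did. XTH19 had -2.90 and -1.91.

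In minus Pi roots 11 members rose from 0 h to 6 h (5.82%), where 8.51% of all probe sets did. In plus Pi roots 0 members rose, where 0.879% of all probe sets did. AT5G22890, listed as STOP2, a zinc finger factor of the acid tolerance pathway, had 7.90, 7.31 and 8.12 in minus Pi roots at 6 h, against 4.59, 4.65 and 6.13 at 0 h (2.65; adjusted p = 0.000537, limma). In plus Pi roots its change was 0.49 (adjusted p = 0.908). AT5G50760 rose by 2.45, EXL2 by 1.93 and TET9 by 1.20 in minus Pi roots, with 0.04, 0.72 and -0.38 in plus Pi roots, none of these past the threshold.

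The Pi effect at 6 h was set against that at 0 h within the same model. By limma 5 members had a larger Pi effect at 6 h than at 0 h and 1 a smaller one, where 1.06% and 0.818% of all probe sets were called. With the experiment as a block there were 18 and 9, where 5.17% and 6.44% of all probe sets were called. The 5 were 256833_at, AT5G50760, TET9, AT2G16900 and AT1G27200, and the 1 was 263421_at. Without experiment 2, 0 members passed.

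**Figure D5:**
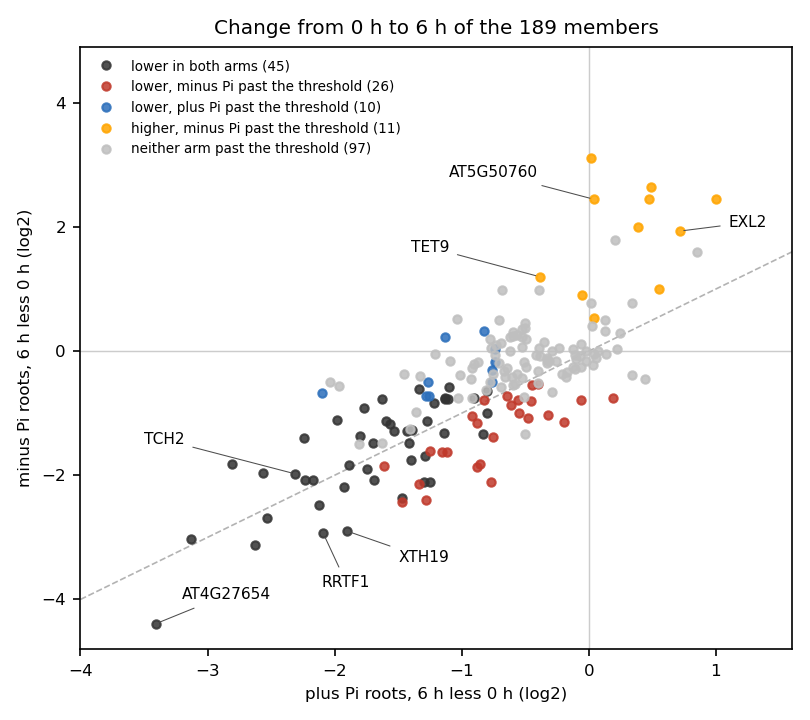
Change from 0 h to 6 h (log2) of each of the 189 members in minus Pi roots (y axis) and plus Pi roots (x axis), coloured by the limma call at an adjusted p under 0.05; the dashed line marks equal change. The 45 members that fell in both arms reach to AT4G27654 at -4.39 and -3.41, and the 11 members that rose did so in minus Pi roots.

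The limits of the rule cut through a continuous range. Just inside the limit on the mean at 1 h were 254331_s_at, MKK6 and AT3G09405, all at 0.80, and just outside were AT1G29660, AT3G06070 and AT1G27100 at 0.80, 0.79 and 0.79. For the lowest experiment at 1 h, AT3G59350, AT2G14650 and 259418_at were inside at 0.31, 0.32 and 0.33, and WRKY70, HSP17.6A and AT5G45630 were outside at 0.28, 0.28 and 0.25. For the mean at 24 h, AT4G27280, WRKY38 and AT5G65300 were inside at 0.40, 0.40 and 0.39, and 261193_at, AT2G28400 and AT2G32140 were outside at 0.41. Of the 135 member loci found in the annotation, 4 pairs are direct neighbours. They are XTH18 and XTH19, EXLA3 and EXLA1, AT4G27652 and AT4G27654, and AT1G63830 and AT1G63840. Of the root markers, EXPA7, an expansin of root hairs, had mean Pi effects of -1.83 at 1 h, -1.35 at 6 h and -1.24 at 24 h, and was thus still lower on average at 24 h. COBL9, another root hair gene, had -0.43, -0.86 and -0.83. Neither passed the threshold at 6 h without the block and both were lower with it (adjusted p = 0.00701 and 0.0306, limma). IRT1, the iron transporter of the root surface, had -1.29 at 0 h, 0.88 at 1 h, 0.24 at 6 h and -3.82 at 24 h. SCR, SHR and PYK10 lay between -0.12 and 0.04 at 1 h. The part of cell type shares in the results was not tested.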

How the data were processed

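Values on a log2 scale for 24 arrays came from the authors' deposited value table. Neither labels nor headers say how probes were summarised or arrays normalized. limma is named in the submitters' processing notes, without a version. A second table deposited by the authors gives log2 fold changes for the Pi effect at the 4 times, a test score without fixed range and p-values. These deposited p-values proved to be adjusted already over all 22810 probe sets and were used as they stand. By the authors' deposited values, 39 members were higher and 7 lower at 6 h, and 0 passed at 0 h. The 64 control probe sets were left out. Genes were named from the deposited locus column or the platform annotation, with symbols from the gene table of TAIR10.1. No promoter or protein sequence was used.

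All 24 arrays entered 1 model with 8 group means (R 4.3.3, limma 3.58.1, statmod 1.5.0; 16 residual degrees of freedom, empirical Bayes). P-values were adjusted by Benjamini-Hochberg across 22746 probe sets, with a threshold of 0.05. The fit was tested on simulated data. The 1 h and 24 h arrays chose the members, and no difference at these times was tested. They did enter the shared estimate of spread behind the tests at 0 h and 6 h. With the 0 h and 6 h arrays alone, 28 members passed for the Pi effect at 6 h, against 46 with all arrays. The members and gene lists (10 lists, 86 of 152 genes measured, and 2 marker lists) were chosen with earlier results of these data known.

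In the labels an experiment number stands for a repeat of the complete experiment, and arrays were paired by it. Deviations from the means of the groups had a mean correlation of 0.554 within an experiment and -0.286 between experiments, and the lowest of 12 pairs was at 0.228. Block values stand beside a Pi effect at 6 h given for a named member where the block changed the call, and beside counts that the block changes. For other named members they are not printed. Exact permutation of 3 arrays against 3 cannot go below p = 0.1. Alternatives were blocks, fewer arrays, centring, a filter on dim probe sets, other variance moderation and other limits of the rule.

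Named genes were drawn from sets of members with 1 gene, and not every gene of a set is named. The sets were the 15 largest at 1 h, the 10 largest of each sign past the threshold at 6 h and the 8 nearest 0. Others were the 3 smallest p at 0 h, the 6 largest of each sign past the threshold from 0 h to 6 h in each arm, and the 8 highest levels. The last were the 8 lowest SDs at 1 h, every list member and those at the limits of the rule. Among the 15 largest at 1 h, AT5G66650, AT5G60350, AT5G47440 and AT3G09280 are not described above and had mean Pi effects of 2.60, 2.27, 2.15 and 2.13. SPX1 and list genes could be named as non-members. Other members were named by role after their values were seen.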

Additional observations from a re-analysis of the deposited data

Results flagged for a closer look

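For 6 members the Pi effect at 6 h differed from that at 0 h in a test of the difference itself (limma, adjusted p under 0.05). The differences were 3.10 for 256833_at, 2.40 for AT5G50760 (SAUR55), 1.58 for TET9, 1.14 for AT2G16900, 0.77 for AT1G27200 and -0.94 for 263421_at. In the first 5 the minus Pi roots lay above the plus Pi roots at 6 h, and in 263421_at below. Without experiment 2, 0 members passed.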

How the results depend on the processing

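The number of members past the threshold for the Pi effect at 6 h was 46; it was 89 with the experiment as a fixed replicate block, 86 with it as a random block, 28 with the 0 h and 6 h arrays alone and 17 without the 5 rescanned or out of run arrays, which left 1 minus Pi array at 6 h whose spread was taken from the other groups. Leaving out an experiment or an array gave 4 to 57. For the difference of the Pi effect between 6 h and 0 h the count was 6, with 27, 23, 1 and 3 under the same settings in that order, and 0 to 10 with an experiment or array left out. From 0 h to 6 h in minus Pi roots the count was 82, with 46 without the 5 arrays and 49 to 78 with an experiment or array left out. In plus Pi roots it was 55, with 89 under the fixed block, 90 under the random block, 36 with the 0 h and 6 h arrays alone, and 11 to 62 with an experiment or array left out. At 0 h 0 members passed under each setting run. The median Pi effect at 6 h was 0.52, and 0.43 to 0.62 with an experiment left out. The rule kept 123 probe sets with a mean at 1 h of at least 1, 302 with no limit at 24 h, and 211 to 263 with an experiment left out. No result changed sign past the threshold under any setting run. Centring the arrays, leaving out dim probe sets and another variance moderation left each of these counts within 1.5 times. Where a setting moved a count, the cause was not tested.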

Other observations

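Among the 136 members naming 1 gene, CBF2 had the smallest spread of the Pi effect at 1 h over the 3 experiments. Its mean was 1.20 ± 0.01 (SD, n = 3), while its 0 h values in minus Pi roots spanned 6.42 to 7.99. The rule used these 1 h values, and this SD was picked as the lowest of 136. SZF1, a tandem zinc finger gene induced by salt, had 1.11 ± 0.03 at 1 h, and its Pi effect at 6 h was 0.44 ± 0.58 (SD, n = 3). The lowest mean at 24 h among the members was that of 257175_s_at, a probe set naming 2 genes, at -1.20, with 1.24 at 1 h. AT2G14650 followed at -0.88 with 1.14 at 1 h. The limit at 24 h bounded the members from above and not from below, so these probe sets were lower in minus Pi roots at 24 h on average.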
